A study of Mus musculus with 6 samples.

Results

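The genes described here are feedback genes of the ERK pathway, the MAP kinase cascade that growth factors switch on: the Sprouty genes Spry1, Spry2 and Spry4, the related gene Spred1, the phosphatase gene Dusp6 and the ETS factor genes Etv4 and Etv5. They were chosen by their Ensembl identifiers, and 7 of the 8 identifiers listed have a row among the 17144 genes of the expression arrays; Dusp4 was not analysed here. RNA came from wild type embryonic stem cells (ESCs) of the blastocyst line V6.5, of a 129SvJae/C57B6 F1 background, grown with fetal bovine serum and the cytokine LIF, and from neural precursor cells (NPCs) derived from that line in vitro. The NPCs were kept on polyornithine and laminin in N3 medium with the growth factors bFGF and EGF, both of which act through the ERK pathway. Neither is named for the ESC medium, but ERK input from the serum and LIF there was not measured. There were 3 arrays of each cell type, ES1, ES2 and ES3 for ESCs and NP106, NP107 and NP39 for NPCs, which the labels number as biological replicates. Whether they came from separate cultures is not given in the sources used here, so that p-values measure the spread between these arrays, which may be technical. Both cell types come from 1 line, and cell type, medium and growth factors changed together, so that their parts in a difference cannot be told apart.

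In this pathway, an activated FGF or EGF receptor passes its signal through RAS, RAF and MEK to the kinase ERK, which phosphorylates ETS and other transcription factors. Among the genes that ERK activity is known to induce are those for its own inhibitors. Sprouty and SPRED proteins act on the membrane side, between the receptor and RAF, and DUSP6 removes phosphate from ERK in the cytoplasm. ETV4 and ETV5, of the PEA3 group, are ETS factors whose transcription is raised by FGF signals in many embryonic tissues. ERK signals are known for moving ESCs out of the naive state, and FGF and EGF for keeping neural precursors dividing in culture.

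The values are log2 expression values made by the authors with robust multi-array average (RMA), 1 per gene and array, and a difference of 1 is 2-fold. Across genes, Pearson's r was 0.996 to 0.998 between ESC arrays and 0.997 between NP106 and NP107, but 0.978 to 0.979 for NP39 against either of these. NP39 lay more than 1 above or below the mean of NP106 and NP107 at 686 genes. The differences of Spry4, Spred1, Dusp6, Etv4 and Etv5 are therefore also given without it. Those of genes outside the feedback set are not. Among marker genes that could be named, the ESC marker Pou5f1 stood at 12.44 ± 0.02 (SD, n = 3 arrays) in ESCs and at 3.70 ± 0.11 (SD, n = 3 arrays) in NPCs. Of 8 neural progenitor markers listed, 6 could be named, nearly always from a list sorted by the rise in NPCs, so that their direction is no check; Nes stood at 7.68 ± 0.15 against 5.63 ± 0.22 (SD, n = 3 arrays each) and Olig2 at 11.24 ± 0.38 against 7.43 ± 0.02. No gene of the oligodendrocyte and fibroblast lists could be named.

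All 7 feedback genes read higher in NPCs than in ESCs on every array, and 6 of them rose by the call rule used here, an adjusted p under 0.05 from limma (Benjamini-Hochberg over all genes) and a difference over 1.5-fold. Over all 17144 genes that rule called 34.1%, with 15.4% higher in NPCs and 18.7% lower. The differences ran from 0.50 for Etv4 to 2.74 for Spry1 on the log2 scale, with a median of 1.16, beside a median of -0.036 over all genes. Spry1 and Dusp6 rose most, Spry4 and Spred1 by a little over 2-fold, and Spry2 and Etv5 by less than 2-fold, while Etv4 was the gene that missed the fold threshold. At each of the 7 genes the lowest NPC array exceeded the highest ESC array, and the same held for 26.1% of all genes, while 32.6% had every NPC array under every ESC array. With 3 arrays on each side, p = 0.1 is the smallest value that a two-sided exact permutation test can give, and each of the 7 genes had it. In RNA from whole cultures, a change in the share of cells that express a gene and a change in the RNA of each cell cannot be told apart.

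**Figure D1:**
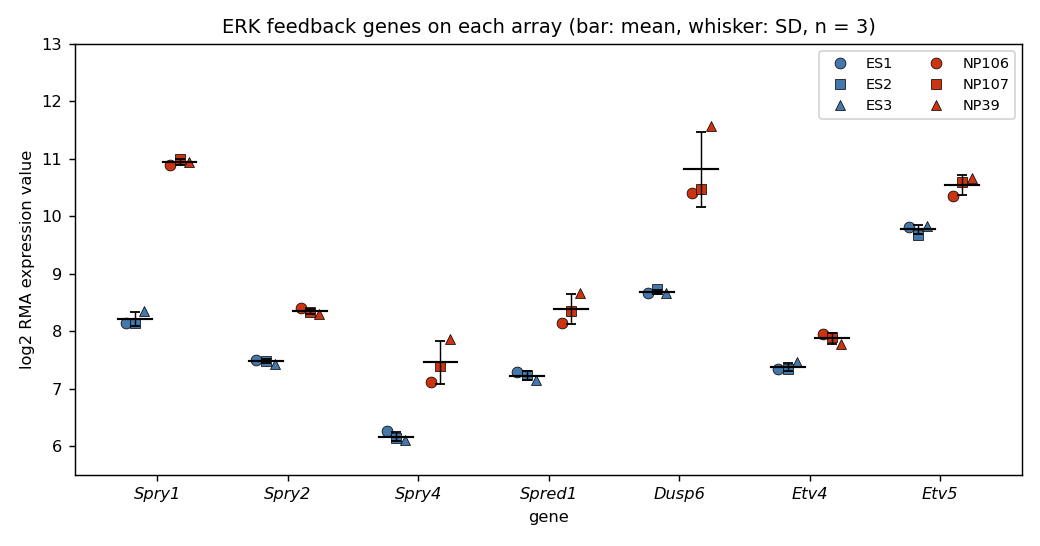
Log2 expression value (y axis) of each of the 7 ERK feedback genes (x axis) on the 6 arrays, with ESC arrays in blue and NPC arrays in red, and bars and whiskers for the mean and SD of 3 arrays. Every red point lies above every blue point of its gene, and the NPC points of Dusp6 spread from 10.41 to 11.57.

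Spry1 (ENSMUSG00000037211_at), which codes for a membrane-associated inhibitor of receptor tyrosine kinase signals, showed the largest rise of the 7 genes. Its log2 values were 8.14 in ES1, 8.14 in ES2 and 8.35 in ES3, and 10.89 in NP106, 11.00 in NP107 and 10.95 in NP39. The cell types were thus far apart, with a gap of 2.55 between the highest ESC array and the lowest NPC array, against a range of 0.10 among the NPC arrays. The mean went from 8.21 ± 0.12 to 10.95 ± 0.05 (SD, n = 3 arrays each). The difference of 2.74 (standard error 0.09, 95% confidence interval 2.53 to 2.95, adjusted p = 7.04e-07 from limma) is 6.68-fold. By rank among all genes of an array, Spry1 moved from the 81.2nd percentile in ESCs to the 98.1st in NPCs, and 1.78% of all genes had a larger rise.

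Spry2 (ENSMUSG00000022114_at), a family member known for binding the ubiquitin ligase CBL, rose by much less. It read 7.50, 7.49 and 7.44 in ES1, ES2 and ES3, and 8.40, 8.33 and 8.30 in NP106, NP107 and NP39. Both groups were tight, with SDs of 0.03 and 0.05, and did not overlap. The difference of 0.87 (standard error 0.07, adjusted p = 6.60e-05 from limma) is 1.83-fold with a 95% confidence interval of 1.62-fold to 2.07-fold. That interval lies wholly below the one for Spry1, 5.77-fold to 7.75-fold, though the difference between the genes was not tested.

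Spry4 (ENSMUSG00000024427_at), a further Sprouty inhibitor of the RAS to ERK route, stood at the 55.5th percentile of the ESC arrays, near the middle of all genes. Its values were 6.25, 6.14 and 6.11 in ES1, ES2 and ES3, and 7.12, 7.40 and 7.86 in NP106, NP107 and NP39. The NPC arrays disagreed by more than the ESC arrays did, over a range of 0.74 against 0.15, and NP39 was the highest. The rise of 1.29 (standard error 0.18, adjusted p = 0.000812 from limma) is 2.45-fold, with a 95% confidence interval of 1.82-fold to 3.29-fold. Without NP39 it was 1.09. When each cell type had its own variance and limma's moderation was left out, the adjusted p for Spry4 was 0.0643, which ended its call.

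Spred1 (ENSMUSG00000027351_at) codes for a Sprouty-related protein that brings neurofibromin, a RAS GTPase activator, to the membrane. It stood at 7.30, 7.24 and 7.14 in ES1, ES2 and ES3, and at 8.13, 8.35 and 8.66 in NP106, NP107 and NP39. The order of the NPC arrays was that of Spry4, with NP39 on top, and the groups were 0.84 apart at their nearest arrays. Spred1 rose by 1.16 (standard error 0.14, adjusted p = 0.000377 from limma), which is 2.23-fold on a linear scale, and by 1.02 without NP39. Spry4 and Spred1 were the pair of feedback genes with the most alike values over the 6 arrays. After each gene was centred on its own mean, they differed by a root mean square of 0.095, against 0.15 for the next pair, Spry2 and Etv5.

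Dusp6 (ENSMUSG00000019960_at), the gene for the phosphatase that acts on ERK itself, showed the widest spread among NPCs. The ESC arrays read 8.67 in ES1, 8.73 in ES2 and 8.66 in ES3, and the NPC arrays 10.41 in NP106, 10.48 in NP107 and 11.57 in NP39. NP39 thus lay 1.13 above the mean of NP106 and NP107, which were 0.07 apart. At 378 of the 17144 genes NP39 stood more than 1 above that mean. With all arrays the rise was 2.13 (standard error 0.29, 95% confidence interval 1.44 to 2.83, adjusted p = 0.000738 from limma), or 4.39-fold, an interval that overlaps that of Spry1. Without NP39 it was 1.76, or 3.38-fold, with an adjusted p of 4.10e-07 from limma, and in NP39 alone the value was 7.40 times the ESC level. As for Spry4, the test without limma's moderation ended the call, with an adjusted p of 0.0763.

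The PEA3 factors had the smallest differences, though the intervals of Etv5 and Spry2 overlap. Etv5 (ENSMUSG00000013089_at), an ETS factor that also serves in the self-renewal of several stem cell types, was already at the 93.9th percentile of the ESC arrays. It read 9.81, 9.68 and 9.82 in ES1, ES2 and ES3, and 10.35, 10.61 and 10.67 in NP106, NP107 and NP39. The groups stayed 0.53 apart. The rise of 0.77 (standard error 0.11, adjusted p = 0.000785 from limma) is 1.71-fold, and without NP39 it was 0.71. With all arrays, the 95% confidence interval of 1.43-fold to 2.04-fold reaches below the fold threshold. Etv4 (ENSMUSG00000017724_at), the founding member of the PEA3 group, stood at 7.34 in ES1, 7.34 in ES2 and 7.46 in ES3, and at 7.95 in NP106, 7.90 in NP107 and 7.77 in NP39. Here NP39 was the lowest NPC array. The difference of 0.50 (standard error 0.09, adjusted p = 0.00229 from limma) is 1.41-fold with a 95% confidence interval of 1.23-fold to 1.63-fold, so that Etv4 passed the p threshold, as 21.9% of all genes did on the higher side, but not that of 1.5-fold. Without NP39 the difference of Etv4 was 0.55, still under the fold threshold. With each array centred on its median, which moved the median of all genes from -0.036 to 0.12, the difference of Etv4 was 0.65 and it was called.

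**Figure D2:**
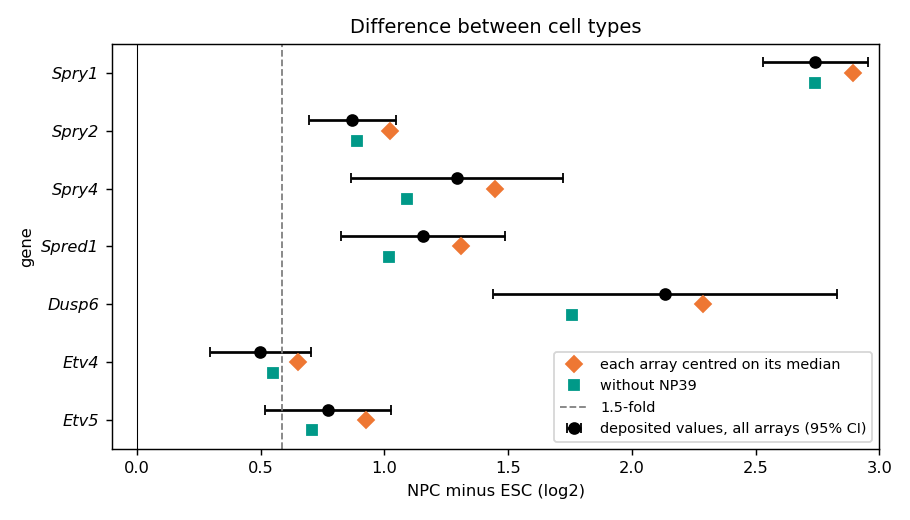
NPC mean minus ESC mean in log2 units (x axis) for the 7 genes (y axis), with the 95% confidence interval from limma in black, the value with each array centred on its median in orange and the value without NP39 in green; the dashed line is 1.5-fold. Every value lies above 0, and of the black points that of Etv4, 0.50, is the one left of the dashed line, where its value without NP39, 0.55, lies too.

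**Figure D3:**
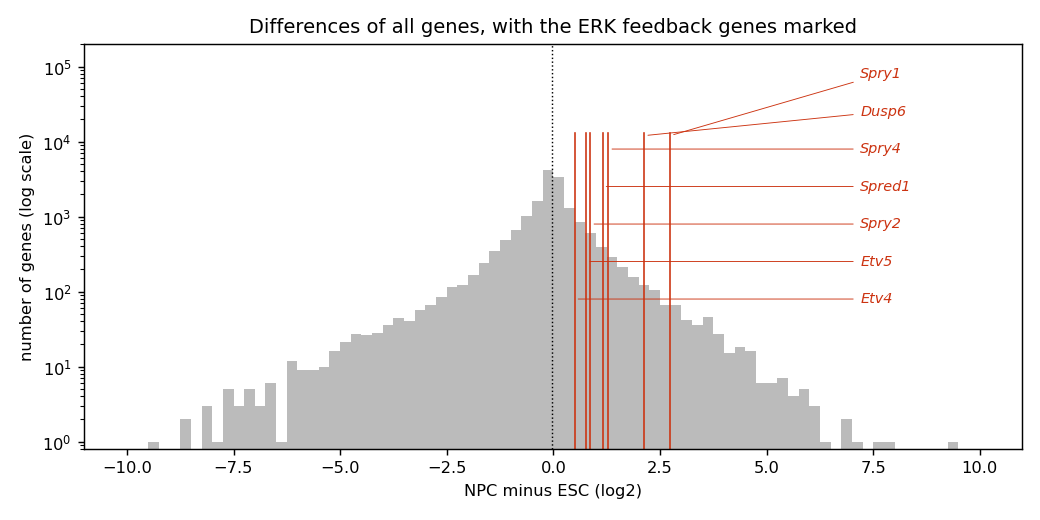
Histogram of the NPC mean minus the ESC mean (x axis, log2) over 17144 genes (y axis, number of genes on a log scale), with the 7 feedback genes as red lines and the median of all genes as a dotted line. The red lines run from 0.50 to 2.74, on the right side of the median of -0.036.

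For the genes with the largest rises, the promoter letters are shown because ETS factors, which end this pathway in the nucleus, bind around a GGAA core. RefSeq promoter windows, 250 bases before to 50 after the start of a gene in build GRCm38.p6, were searched for 5 of the 7 genes, with 6 windows in all. Etv4 had no such window and Spry4 was left out of the search, so nothing is said of their promoters. The windows below are those of Spry1 (chr3:37639697-37639996, plus strand) and Dusp6 (chr10:99262981-99263280, plus strand), read 5′ to 3′ along the gene, with GGAA and its reverse complement TTCC in capitals.
Spry1: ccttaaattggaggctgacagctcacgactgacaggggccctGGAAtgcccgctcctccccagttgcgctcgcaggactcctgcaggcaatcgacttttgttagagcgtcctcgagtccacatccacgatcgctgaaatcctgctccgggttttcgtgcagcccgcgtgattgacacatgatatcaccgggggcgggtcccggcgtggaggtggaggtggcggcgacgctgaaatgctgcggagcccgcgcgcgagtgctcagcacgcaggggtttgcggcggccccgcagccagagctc
Dusp6: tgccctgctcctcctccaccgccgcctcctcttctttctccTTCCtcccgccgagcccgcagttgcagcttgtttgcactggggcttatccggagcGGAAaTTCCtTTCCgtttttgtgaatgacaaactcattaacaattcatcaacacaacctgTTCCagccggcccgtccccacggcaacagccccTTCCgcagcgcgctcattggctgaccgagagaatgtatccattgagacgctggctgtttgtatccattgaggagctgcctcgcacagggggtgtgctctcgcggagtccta
The window of Dusp6 holds the core 6 times on either strand and that of Spry1 once, while the median over 32851 windows of this length is 3. As many cores as in Dusp6, or more, occur in 15.7% of all windows. At least 1 core, as in Spry1, occurs in 96.0% of them. The windows of Spry2 and Spred1 hold 5 each, a count that 28.6% of all windows reach or pass. The 2 windows of Etv5 hold 0 and 6. None of the 6 windows holds the longer ETS motif CCGGAAGT, which contains the core and occurs in 3.89% of all windows, nor the AP-1 motif TGACTCA (5.20%), the CRE motif TGACGTCA (1.79%), the octamer ATGCAAAT (1.74%) or the SOX motif CTTTGTT (5.85%), each searched on both strands. These counts describe letters in a short window and not sites in use, and the GGAA count was added after the other motifs had been searched.

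NP39 did not stand apart at all feedback genes alike. It was the highest NPC array at 4 of the 7 genes, Dusp6, Spry4, Spred1 and Etv5, and the lowest at Spry2 and Etv4. NP39 differed from the mean of NP106 and NP107 by more than those arrays differed from each other at 4 genes, above it at Dusp6, Spry4 and Spred1 (1.13, 0.60 and 0.42) and below it at Etv4 (-0.15). At Spry1 the difference was 0.01. With 1 array against 2 there is no test of this difference. The shares of all genes with NP39 highest, or this far from the mean of NP106 and NP107, were not counted. The counts of 4 genes thus have no background and do not set the feedback genes apart. Of the 11 other ERK-responsive factors that could be named, 6 read above that mean in NP39 and 5 below it, and 2, Egr1 and Egr2, were more than 1 above. Egr1, an immediate early zinc finger factor, read 9.10 in NP106, 8.82 in NP107 and 11.76 in NP39, against 8.01 ± 0.12 (SD, n = 3 arrays) in ESCs, and was not called (adjusted p = 0.0652 from limma). Its relative Egr2 read 4.79, 4.49 and 6.89 in the same order. The remaining 9 factors lay between -0.46, at Elk3, and 0.55, at Jun. Egr1 was singled out after its values were seen. Among the marker genes with names, the neuron genes Syt1 and Dcx read lower in NP39 than in NP106 and NP107, with differences from their mean of -2.08 and -1.20, and the astrocyte gene S100b was higher by 0.80. These are 2 of 8 neuron and 1 of 6 astrocyte markers listed, and their part in the NP39 values of the feedback genes was not tested.

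**Figure D4:**
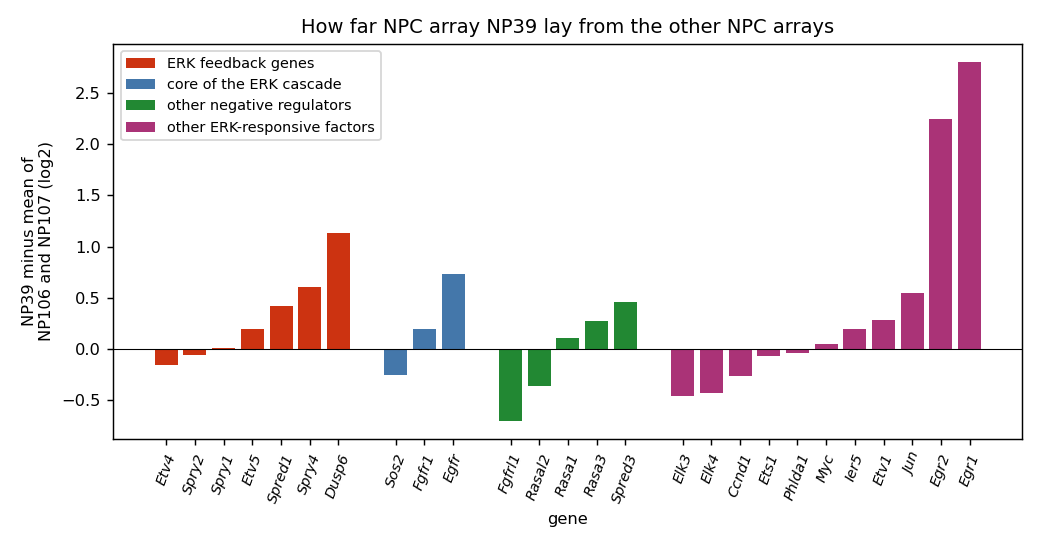
NP39 minus the mean of NP106 and NP107 on the log2 scale (y axis) for the 7 feedback genes and the named genes of 3 lists of the ERK pathway (x axis, coloured by list). The bars of Egr1 and Egr2 are the tallest, Dusp6 follows with 1.13, and Spry1 lies at 0.01.

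The rest of the pathway could be described only in part, because the deposited rows carry no gene names and names could be matched to 2006 genes, nearly all of them from a list sorted by the rise in NPCs. Of 23 genes of the core of the ERK cascade 3 could be named, of 22 other negative regulators 5, and of 20 other ERK-responsive factors 11. These genes carry a name because they rose, so that their direction is no result, and their sizes are given as a description. Among receptors and adaptors, Egfr, the EGF receptor, went from 4.21 ± 0.05 in ESCs to 8.56 ± 0.43 in NPCs (SD, n = 3 arrays each), and Sos2, a RAS exchange factor, rose by 2.07 on the log2 scale. Egfr was highest in NP39, at 9.04 against 8.21 and 8.42, and Sos2 lowest, at 8.17 against 8.47 and 8.39. Fgfr1, the receptor for bFGF, read 6.62 ± 0.14 in ESCs and 7.95 ± 0.11 in NPCs (SD, n = 3 arrays each).

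Among the other negative regulators, the RAS GTPase activator gene Rasa3 rose most, by 3.52, followed by Fgfrl1, an FGF receptor without a kinase domain, with 2.55, and by the third SPRED gene, Spred3, with 2.08. Spred3 went from 4.37 ± 0.16 to 6.45 ± 0.27 (SD, n = 3 arrays each) and was highest in NP39, whereas Fgfrl1 was lowest there, with a difference of -0.70 from the mean of 9.65 in NP106 and 9.74 in NP107. Of these 5 regulators, 3 read above the mean of NP106 and NP107 in NP39 and 2, Fgfrl1 and Rasal2, below it. Rasa1 and Rasal2 rose by 0.91 and 2.00. Among the responsive factors, Jun rose by 3.99, Myc by 3.93, the cyclin gene Ccnd1 by 3.20, the ETS genes Elk3 by 3.17 and Ets1 by 2.35, Phlda1 by 2.92 and Egr2 by 2.32 on the log2 scale. The rise of Egr2 leaned on NP39, which read 6.89 against 4.79 in NP106 and 4.49 in NP107. The third PEA3 gene, Etv1, read 3.30 ± 0.10 in ESCs and 4.37 ± 0.33 in NPCs (SD, n = 3 arrays each), near the 10.9th and the 32.8th percentile, so its signal was low on both sides.

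Genes with the most alike pattern were taken as those with the smallest root mean square difference from a feedback gene over the 6 arrays, after each gene was centred on its own mean, among 1999 other named genes. For Spry1 these were Slitrk5 (0.055), a neural transmembrane protein gene, and Plxnb3 (0.074), a semaphorin receptor gene. Spry2 was closest to Rbm45 (0.027), Spry4 to Spin4 (0.052) and Spred1 to Pid1 (0.052). For Dusp6 the nearest were Pck2 (0.091) and Hmga2 (0.098). Both had NP39 above the other NPC arrays, as a choice by likeness to Dusp6 must give. NP39 read 9.78 against 8.53 and 8.49 for Pck2, and 8.87 against 7.55 and 7.70 for Hmga2. Etv5 lay nearest Fadd (0.057), with 6 genes without a name nearer. For Etv4, 1654 other genes lay nearer than the first named one, so no gene is given.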

How the data were processed

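RNA of 6 samples was hybridized to Affymetrix mouse arrays, 1 array per sample. The authors deposited log2 values made by RMA with an updated probe annotation (BrainCDF), which joins the probes of each Ensembl gene into 1 value; neither its version nor a genome build is given in the sources used here. Of 17208 rows, 64 control probe sets were left out, and no floor, filter or further scaling was applied to the 17144 genes. NPCs were compared with ESCs by a moderated linear model in limma 3.58.1 under R 4.3.3, with cell type as its sole term. P-values were adjusted by the Benjamini-Hochberg method over all genes, and calls needed an adjusted p under 0.05 and over 1.5-fold, the thresholds of the methods. Alternatives were a rebuilt moderated Welch test, unmoderated separate variances, a variance trend, quantile and median scaling, a filter on low genes, other fold thresholds, the replicate number as a block and each array left out. The fit was tested on simulated data with known changes. There each gene had the same spread in both cell types and no array lay apart, so the test does not cover an array like NP39.

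The 7 genes were taken by identifier. Their names come from the list that chose them, and for 5 of the 7 the study's tables print the same name with the same 6 values, within 0.0001. The other named genes were matched in that way alone. The study's tables also hold its own comparisons, which were not used. The members, the pathway lists and the tests were chosen with earlier results of these data known. Genes of the pathway lists are named with values where they were called without overlap and changed over 4-fold, and others as examples chosen after their values were seen. Arrays carry no counts, so it is the number of arrays that limits the precision. Promoter sequences are from RefSeq (GRCm38.p6). Figures were drawn with Python 3.11.15 and matplotlib 3.10.9.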

Additional observations from a re-analysis of the deposited data

How the results depend on the processing

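All 7 genes kept their direction in the 15 alternatives, but most of these could not change it. Another variance model, filter, fold threshold or block leaves the difference as it is. Leaving out 1 array could not reverse it either, since every NPC array read above every ESC array. Only quantile and median scaling could, and there each difference was larger than with the deposited values. Of the 105 values, 99 stayed on the same side of the threshold. With separate variances and no moderation, Spry4 (1.29, adjusted p = 0.0643) and Dusp6 (2.13, adjusted p = 0.0763) were no longer called, so that 4 of the 7 genes were, while over all genes the calls went from 5851 to 4332, with 1806 of them higher. With a difference over 2-fold in place of 1.5-fold, Spry2 (0.87) and Etv5 (0.77) were not called, as the stricter threshold must give, and over all genes the number of calls went from 5851 to 3592, from 2638 to 1615 on the higher side and from 3213 to 1977 on the lower. Etv4 was called with no fold threshold (0.50) and after median centring of the arrays (0.65). That centring raised the share of higher genes among all called from 45.1% to 55.6%. Leaving out 1 array at a time, the difference lay between 2.70 and 2.81 for Spry1, 0.84 and 0.89 for Spry2, 1.09 and 1.46 for Spry4, 1.02 and 1.28 for Spred1, 1.76 and 2.34 for Dusp6, 0.46 and 0.55 for Etv4 and 0.71 and 0.87 for Etv5, and 6 genes were called each time. The highest adjusted p in these fits was 0.0145, for Etv4 without ES1.

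ESC and NPC arrays carry the same replicate numbers. After removing group means, the correlation across genes within the 3 same-numbered pairs was 0.026, 0.011 and -0.0064. Deviations were thus not shared across genes as a whole, but a batch or culture effect on few genes could not be seen in this way. In a fit with the replicate block, the same 6 genes were called. Each number holds an ESC and an NPC array, so the block cannot change a difference and bears on the p-values alone. The adjusted p from limma was higher with the block at each feedback gene. It went from 7.04e-07 to 4.97e-05 for Spry1, from 6.60e-05 to 0.000982 for Spry2 and from 0.00229 to 0.0129 for Etv4.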
